A study of Mus musculus with 12 samples.

Results

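The genes described here are Atrip, Topbp1, Mdc1, H2afx, Brca1, Chek1, Hus1, Rad1, Rnf8 and Setdb1, 10 of the 21938 protein-coding genes of the mouse annotation on 21 chromosomes. They were chosen by name for their known roles in DNA damage signaling and meiotic silencing. No rule on their values was used, but earlier results of these data were known when they were chosen. Nascent transcription was mapped by leChRO-seq, a run-on assay on isolated chromatin that sequences the RNA held by engaged RNA polymerase. The libraries came from spermatocytes of adult wild-type (WT) mice, separated by cell size and density (STAPUT) into leptonema/zygonema, pachynema and diplonema, with 4 libraries per substage and 12 in all. The study's methods name the C57Bl/6J and DBA/2J backgrounds without assigning one to these libraries, and fractions enriched by sedimentation hold some cells of other stages, which the study describes as mostly elongated spermatids. No group carried a mutation or a treatment, so the substages were compared with each other.

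The data were 3 lists of dREG peaks, 1 per substage, each called by the authors after merging the 4 libraries. The dREG software was trained to recognize transcription initiation in run-on data. It gives each peak a score that is larger where the pattern of initiation is clearer, which is not an amount of transcript. The leptonema/zygonema list held 71107 peaks, the pachynema list 68352 and the diplonema list 38603. Because libraries were merged before calling, no value has a replicate spread and no difference between substages could be tested. The lists hold no read counts, so the depth behind each of them was not compared.

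In spermatocytes, DNA damage signaling does more than repair breaks. As homologs synapse, the X and Y chromosomes stay largely unpaired, and the kinase ATR, with its partner ATRIP and its activator TOPBP1, collects on them. ATR phosphorylates histone H2AX, the adaptor MDC1 spreads this mark from the chromosome axes into the chromatin loops, and the sex chromosomes are silenced from early pachynema. BRCA1 helps to place ATR on the axes, RNF8 adds ubiquitin to the marked chromatin, and SETDB1 methylates histone H3 at lysine 9 there. RAD1 and HUS1 are subunits of the clamp that brings TOPBP1 to damaged DNA, and CHEK1 is a kinase downstream of ATR.

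A gene was counted as called in a substage when the edge of a dREG peak lay under 1000 bp from any of its annotated transcription start sites (TSSs), and such a peak is a TSS peak. All 10 genes were called in every substage. Over all protein-coding genes the share called was 60.2% in leptonema/zygonema, 60.5% in pachynema but 51.6% in diplonema, and 49.5% were called in all 3 substages. The Wilson 95% interval, which covers counting error only, ran from 59.5% to 60.8% in leptonema/zygonema and from 51.0% to 52.3% in diplonema. The leptonema/zygonema list held 29 TSS peaks of the 10 genes, the pachynema list 31 and the diplonema list 24. The median per gene was 3, 3 and 2, against 2 in every substage over the called protein-coding genes.

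The 10 genes differed widely in score within each list. Scores were not scaled between lists, so the highest TSS peak score of a gene was ranked in 2 ways within its own list. The list percentile is the percentage of all peaks of the list with a score not above it. The gene percentile is the same among the highest scores of the called protein-coding genes. In leptonema/zygonema the list percentiles of the 10 genes ran from 34.2 to 99.8 with a median of 80.9, beside a median of 83.0 over the protein-coding genes. In pachynema they ran from 65.0 to 96.8 with a median of 92.2, beside 84.6. In diplonema they ran from 41.8 to 99.1 with a median of 87.1, beside 78.6. On the gene scale, 4 of the 10 genes lay above the 50th percentile in leptonema/zygonema, and 7 did in pachynema and in diplonema.

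**Figure D1:**
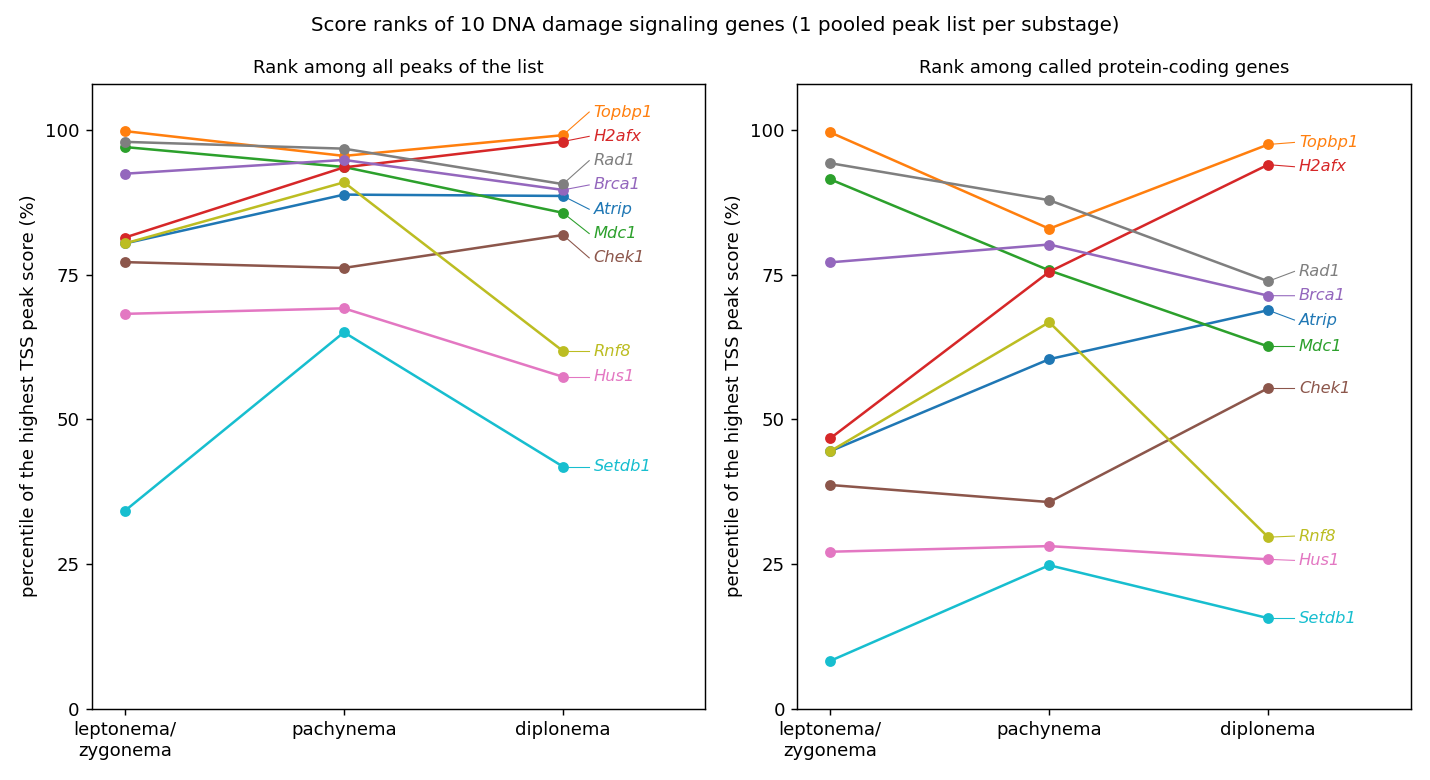
Percentile of the highest TSS peak score (y axis) in each substage (x axis), with 1 line per gene, 1 value per gene and substage and no error bars because libraries were merged. The left panel ranks among all peaks of the list and the right panel among called protein-coding genes, where H2afx moved from 46.7 to 94.0 between leptonema/zygonema and diplonema while Setdb1 stayed under 25.

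Of the 10 genes, 3 had a list percentile at least 10 points higher in pachynema than in leptonema/zygonema, and 0 were lower by as much. These were Setdb1, H2afx and Rnf8, with differences of 30.8, 12.1 and 10.6 points. Rnf8 rests on a peak inside the gene and was at -10.4 points under each of the 5 other TSS rules, so that 1 gene was lower under each. Under 4 of these rules 2 genes were higher, and where a TSS had to be inside the peak 3 were, with Hus1 at 14.7 points. Of the protein-coding genes called in both lists, 16.5% were higher by 10 points or more and 14.4% were lower. From pachynema to diplonema, 0 of the 10 genes were higher by 10 points and 3 were lower, namely Rnf8 (-29.2 points), Setdb1 (-23.2 points) and Hus1 (-11.8 points). The Rnf8 value compares peaks that do not overlap, with centers 2550 bp apart, and it was -7.01 points under each of the other TSS rules, which left 2 genes lower. Lower ranks were common in that step, with 40.4% of protein-coding genes lower by 10 points or more and 4.55% higher. The median difference of the 10 genes was 1.67 points into pachynema and -5.66 points into diplonema, beside 1.06 and -6.20 points over the protein-coding genes. On the gene scale, 4 of the 10 were higher and 2 lower by 10 points or more into pachynema, beside 25.4% and 24.2% of the protein-coding genes. Into diplonema, 3 were higher and 3 lower on that scale, beside 19.3% and 38.3%. With every list limited to its 38603 highest peaks, 2 of the 10 genes were higher and 1 lower by 10 points or more into diplonema. The shares of the protein-coding genes were then 24.3% and 21.4%. Under that limit Hus1 was 11.9 points and Setdb1 3.74 points higher in diplonema than in pachynema, against the direction above. Into pachynema under the same limit, 3 of the 10 genes were higher and 0 lower, beside 28.3% and 16.8% of the protein-coding genes. The higher ones were H2afx (22.8 points), Rnf8 (20.1 points) and Atrip (16.3 points). Setdb1 then had no value in that step, because it was not called in leptonema/zygonema. With 1 list per substage, the 10 point limit is a size and not a test.

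The sequences before the start sites are shown for 6 genes, to set the promoter that ranked highest in leptonema/zygonema and diplonema (Topbp1) and the one that ranked lowest in every substage (Setdb1) beside that of H2afx and those of Atrip, Mdc1 and Brca1, which share a pair of motifs. Each is the 150 bases before the TSS in the RefSeq GRCm38.p6 genome (mm10), 5′ to 3′ on the strand of the gene. Capitals mark matches on either strand to a CCAAT box (CCAAT), a GC box (GGGCGG), the E2F core (TTCCCGC or TTGGCGC) or the ETS core (CCGGAAG). They also mark matches to the CRE core (TGACGT), the RFX core (GTTGCNA) or the TATA box (TATAAA). The CRE and RFX cores are each a part of the full element and not the whole of it. Matches to the MYB core (GGCNGTT), the NRF1 core (GCATGCG) and the E box (CACGTG) were also searched for, and none lay in these 6 stretches.
Topbp1 chr9:103305065-103305214, plus strand: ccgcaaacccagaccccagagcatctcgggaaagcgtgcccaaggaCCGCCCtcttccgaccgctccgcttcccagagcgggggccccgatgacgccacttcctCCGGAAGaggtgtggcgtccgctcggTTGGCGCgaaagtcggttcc
H2afx chr9:44334544-44334693, plus strand: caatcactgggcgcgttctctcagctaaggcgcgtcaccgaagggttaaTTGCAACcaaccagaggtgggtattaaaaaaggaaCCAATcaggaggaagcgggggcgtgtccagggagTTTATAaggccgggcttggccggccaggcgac
Atrip chr9:109074125-109074274, minus strand: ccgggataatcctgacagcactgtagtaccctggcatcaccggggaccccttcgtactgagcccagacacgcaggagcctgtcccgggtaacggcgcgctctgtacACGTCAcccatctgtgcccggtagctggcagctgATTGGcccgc
Mdc1 chr17:35841365-35841514, plus strand: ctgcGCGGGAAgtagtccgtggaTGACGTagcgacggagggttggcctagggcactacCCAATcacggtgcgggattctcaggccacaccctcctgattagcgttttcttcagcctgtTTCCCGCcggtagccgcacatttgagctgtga
Brca1 chr11:101551956-101552105, minus strand: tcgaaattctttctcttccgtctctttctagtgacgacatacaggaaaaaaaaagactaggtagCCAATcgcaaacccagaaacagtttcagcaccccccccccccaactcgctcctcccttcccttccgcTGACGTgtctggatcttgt
Setdb1 chr3:95357203-95357352, minus strand: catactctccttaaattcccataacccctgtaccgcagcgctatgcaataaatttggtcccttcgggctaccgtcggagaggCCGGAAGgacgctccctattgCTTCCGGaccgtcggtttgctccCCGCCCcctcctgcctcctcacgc

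In H2afx the TATA box match began 32 bases before the TSS, the CCAAT box 66 and the RFX core 101. Atrip, Mdc1 and Brca1 each held a CCAAT box and a CRE core, at different distances from the TSS. In Atrip the CRE core began 44 bases before the TSS and the CCAAT box 10. In Brca1 they began 19 and 86 bases before it, and in Mdc1 127 and 92. Topbp1 held a GC box, an ETS core and an E2F core, which began 104, 46 and 20 bases before its TSS. The first 18 bases of the Topbp1 stretch lie in an exon of a neighboring gene, and the whole Setdb1 stretch lies in Gm37500, an unclassified transcript on the opposite strand.

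Motifs were counted over all 10 genes from 250 bases before to 50 bases after the TSS nearest to the highest pachynema TSS peak. The background was the same window in the 13272 protein-coding genes called in pachynema. The CRE core stood in 4 of the 10 windows (Atrip, Mdc1, Brca1 and Chek1) and in 12.2% of the background windows. The CCAAT box stood in 5, against 38.2%, and the GC box in 5, against 62.9%. The MYB core (Atrip, H2afx and Hus1), the E2F core (Topbp1, Mdc1 and Brca1) and the ETS core (Topbp1, Rad1 and Setdb1) each stood in 3 windows, against 14.2%, 12.4% and 17.1%. The RFX core stood in 2 windows, against 11.1%, and the TATA box in that of H2afx alone, against 6.53%. The NRF1 core and the E box stood in 0, against 6.53% and 10.4%. The reverse of the CCAAT box, ATTGG, shares the letters TTGG with the E2F core. For Chek1, Hus1 and Rnf8 the window was set by an internal TSS, and the Rnf8 window held no match. A match of these letters is not evidence that a factor binds, and the CRE and RFX cores are only parts of a full element. The median GC content of the 10 windows was 56.7%, beside 61.0% in the background.

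Topbp1 (chr9:103305215-103350428, plus strand) and Atrip (chr9:109057933-109074124, minus strand) encode the activator and the partner of ATR. All positions are on mm10. The highest Topbp1 TSS peak covered its TSS in every substage and scored 1.43, 1.23 and 1.25 from leptonema/zygonema through pachynema to diplonema. Its gene percentile was 99.6, 82.9 and 97.5, so it stood highest of the 10 genes in leptonema/zygonema and diplonema and after Rad1 in pachynema. The highest Atrip TSS peak also covered a TSS, scored 1.00, 1.11 and 0.986, and kept its place to within 20 bp between peak centers. The list percentile of Atrip was 80.4, 88.8 and 88.6, and its gene percentile 44.5, 60.4 and 68.8. Atrip ranked higher in each later substage on the gene scale while its own score was lowest in diplonema. The median of the highest scores over called protein-coding genes was also lowest there, at 0.835 against 1.05 in leptonema/zygonema and 1.03 in pachynema.

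Rad1 and Hus1, partners in the same clamp, lay far apart in rank. Rad1 (chr15:10486018-10499063, plus strand) scored 1.33, 1.26 and 1.02 in leptonema/zygonema, pachynema and diplonema, with gene percentiles of 94.3, 87.9 and 73.8. With the scores of its TSS peaks summed, its differences were larger, at -24.7 points into pachynema and -30.8 points into diplonema. Hus1 (chr11:8993137-9011191, minus strand) scored 0.798, 0.781 and 0.595, with gene percentiles of 27.1, 28.1 and 25.8. Every Rad1 value lay above every Hus1 value. Over the substages Rad1 had 5, 3 and 1 TSS peaks, and that diplonema peak ran from 10485611 to 10486420. The highest Hus1 peak of leptonema/zygonema, from 9010241 to 9010600, lay downstream of the first TSS, whereas that of diplonema, from 9010631 to 9011460, covered it.

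H2afx, Mdc1 and Rnf8 encode the histone, its adaptor and the ubiquitin ligase, and their ranks moved in different ways. H2afx (chr9:44334694-44336077, plus strand), a gene of 1384 bp with 1 annotated transcript, scored 1.02, 1.19 and 1.20 from leptonema/zygonema through pachynema to diplonema. Its gene percentile was 46.7, 75.5 and 94.0. On the gene scale this was the largest difference of the 10 genes between leptonema/zygonema and diplonema (47.3 points). On the list scale H2afx differed by 16.6 points between them, beside -18.6 points for Rnf8. With the scores of its TSS peaks summed, H2afx was 21.1 points higher into pachynema and 5.52 points higher into diplonema. Its highest score was nearly the same in pachynema and diplonema, while the median over called protein-coding genes was 1.03 and 0.835. TSS peaks covered most of this short gene, with 4, 5 and 4 of them over the substages. Mdc1 (chr17:35841515-35859670, plus strand) went the other way, with scores of 1.30, 1.19 and 0.940 and gene percentiles of 91.5, 75.7 and 62.6. With the scores of its TSS peaks summed, however, Mdc1 was 2.59 points higher in pachynema than in leptonema/zygonema and 15.5 points higher in diplonema than in pachynema. Its highest diplonema peak ran from 35841061 to 35841580, with a second of similar score (0.849) just downstream, in place of a broad leptonema/zygonema peak from 35841131 to 35841910.

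Rnf8 (chr17:29614790-29644991, plus strand) had separate TSS peaks whose ranks differed between substages. The peak over its first TSSs scored 0.980, 0.776 and 0.637 from leptonema/zygonema through pachynema to diplonema, at list percentiles of 79.2, 68.8 and 61.8. The peak at about 2500 bp into the gene scored 1.00, 1.14 and 0.396, at list percentiles of 80.4, 90.9 and 28.4. This internal peak lay 825 bp from its nearest TSS in leptonema/zygonema and 905 bp in pachynema, and that TSS, 1346 bp into the gene, begins a non-coding transcript. It set the value of Rnf8 in leptonema/zygonema and pachynema, and the peak over the start set it in diplonema. By the peak over the start alone, Rnf8 had a lower list percentile in each later substage. Its gene percentile by that peak was 42.0, 27.7 and 29.6, and with lists of equal size its list percentile was 61.7, 44.8 and 61.8, so on these scales it was lower in pachynema than in leptonema/zygonema but not lower in diplonema than in pachynema.

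**Figure D2:**
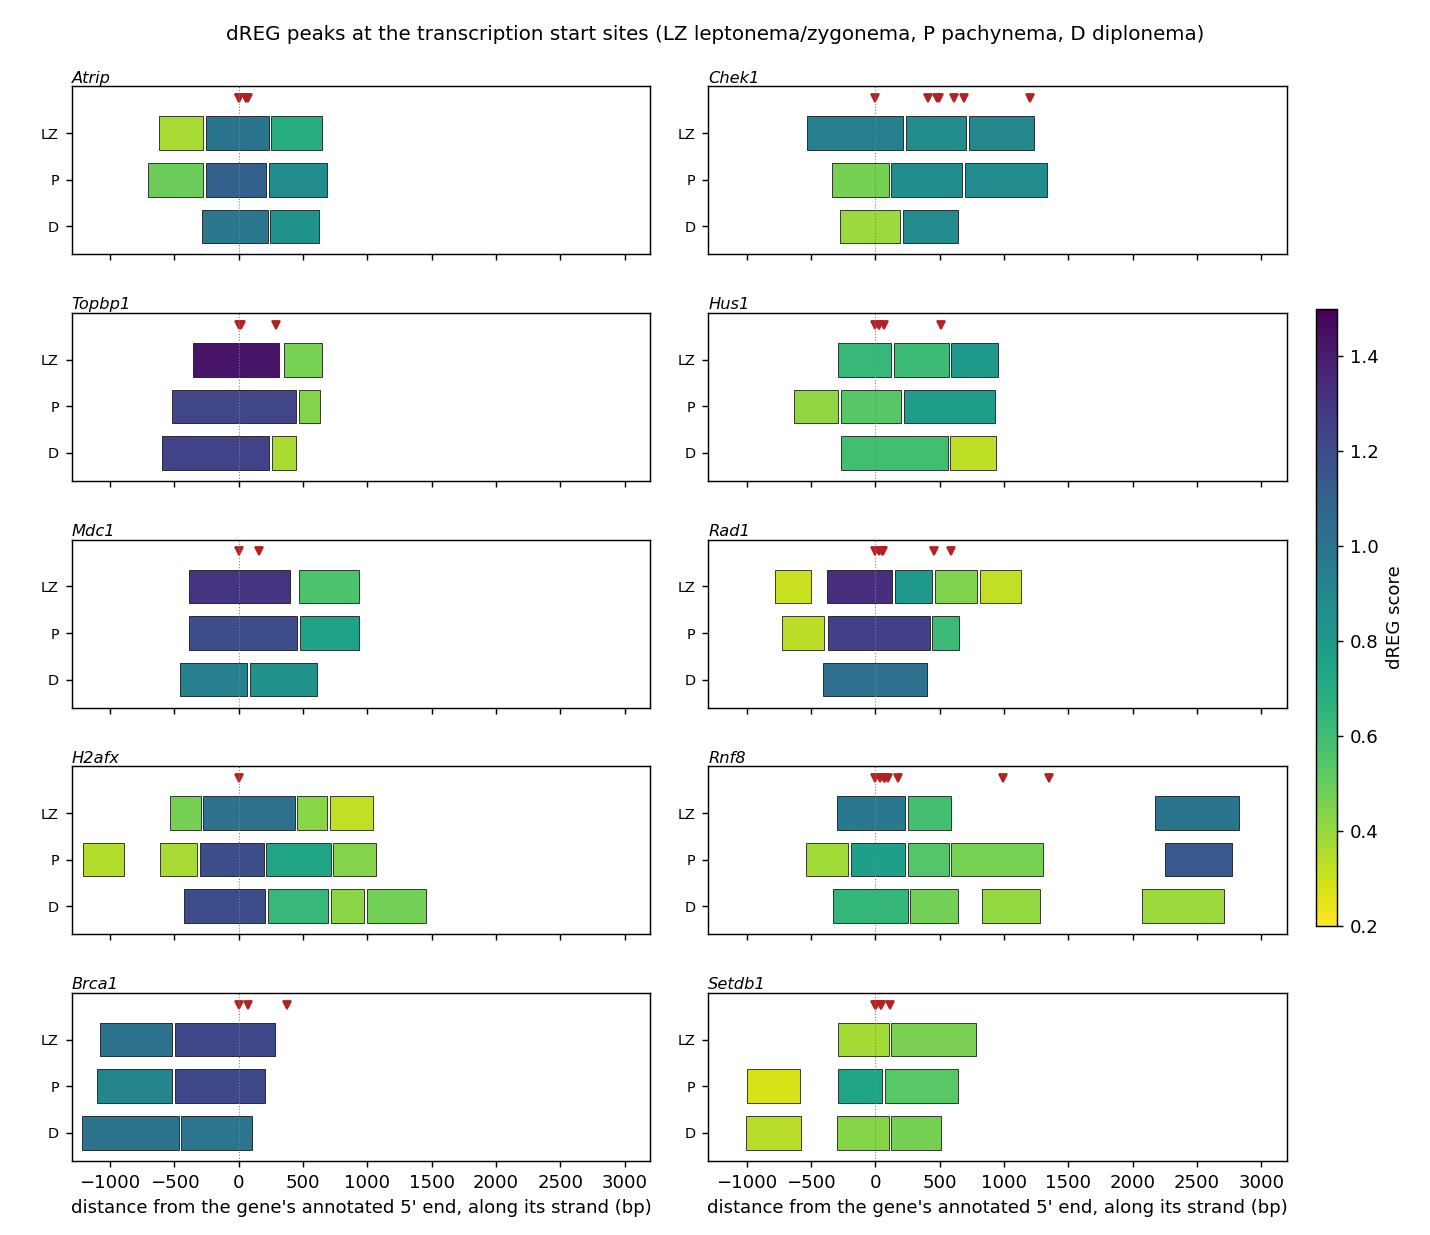
TSS peaks of each gene by distance from its annotated 5′ end along its strand (x axis, bp), in the rows LZ (leptonema/zygonema), P (pachynema) and D (diplonema). Boxes are peaks to scale, colors are dREG scores and red triangles are annotated TSSs, and the dark Rnf8 box near 2500 bp in LZ and P (scores 1.00 and 1.14) is pale in D (0.396).

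The list percentiles of Brca1 and Chek1 differed by under 10 points between neighboring substages. Brca1 (chr11:101488764-101551955, minus strand), a subunit of a ubiquitin ligase that also acts in break repair, scored 1.21, 1.22 and 1.00, at list percentiles of 92.4, 94.8 and 89.6 and gene percentiles of 77.1, 80.2 and 71.4. With summed scores its differences turned to -4.09 points into pachynema and 15.7 points into diplonema. In diplonema its highest peak was not the peak over its own TSS (0.995) but the next one upstream (1.00), from 101552421 to 101553170, which covers a TSS of Nbr1. Chek1 (chr9:36708482-36727065, minus strand) scored 0.943, 0.883 and 0.881, at list percentiles of 77.2, 76.2 and 81.8 and gene percentiles of 38.6, 35.7 and 55.4. From pachynema to diplonema it was thus 19.7 points higher on the gene scale. It was 24.1 points higher on the list scale with lists of equal size, but at -18.2 points with the scores of its TSS peaks summed. Its highest peak lay at a different position in each substage, without overlap, within a run of adjoining peaks near its upstream TSSs. For all 10 genes, the highest peaks of leptonema/zygonema and pachynema overlapped in 8, beside 89.1% of the protein-coding genes called in both lists. Those of pachynema and diplonema overlapped in 7, beside 88.8%.

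Setdb1 (chr3:95323525-95357202, minus strand) had the lowest score of the 10 genes in every substage. It scored 0.461 in leptonema/zygonema, 0.729 in pachynema but 0.472 in diplonema, with gene percentiles of 8.25, 24.8 and 15.6. The pachynema peak, from 95357151 to 95357490, covered the TSS, whereas the highest peak of each of the other lists lay just downstream. The peak over the TSS scored 0.377 in leptonema/zygonema and 0.436 in diplonema, so pachynema was highest there as well by score. The rank of Setdb1 did not keep that order under every setting, since from pachynema to diplonema it was 3.74 points higher with lists of equal size and 6.98 points higher with summed scores. With a minimum dREG score of 0.5, Setdb1 was called in pachynema but not in leptonema/zygonema or diplonema.

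**Figure D3:**
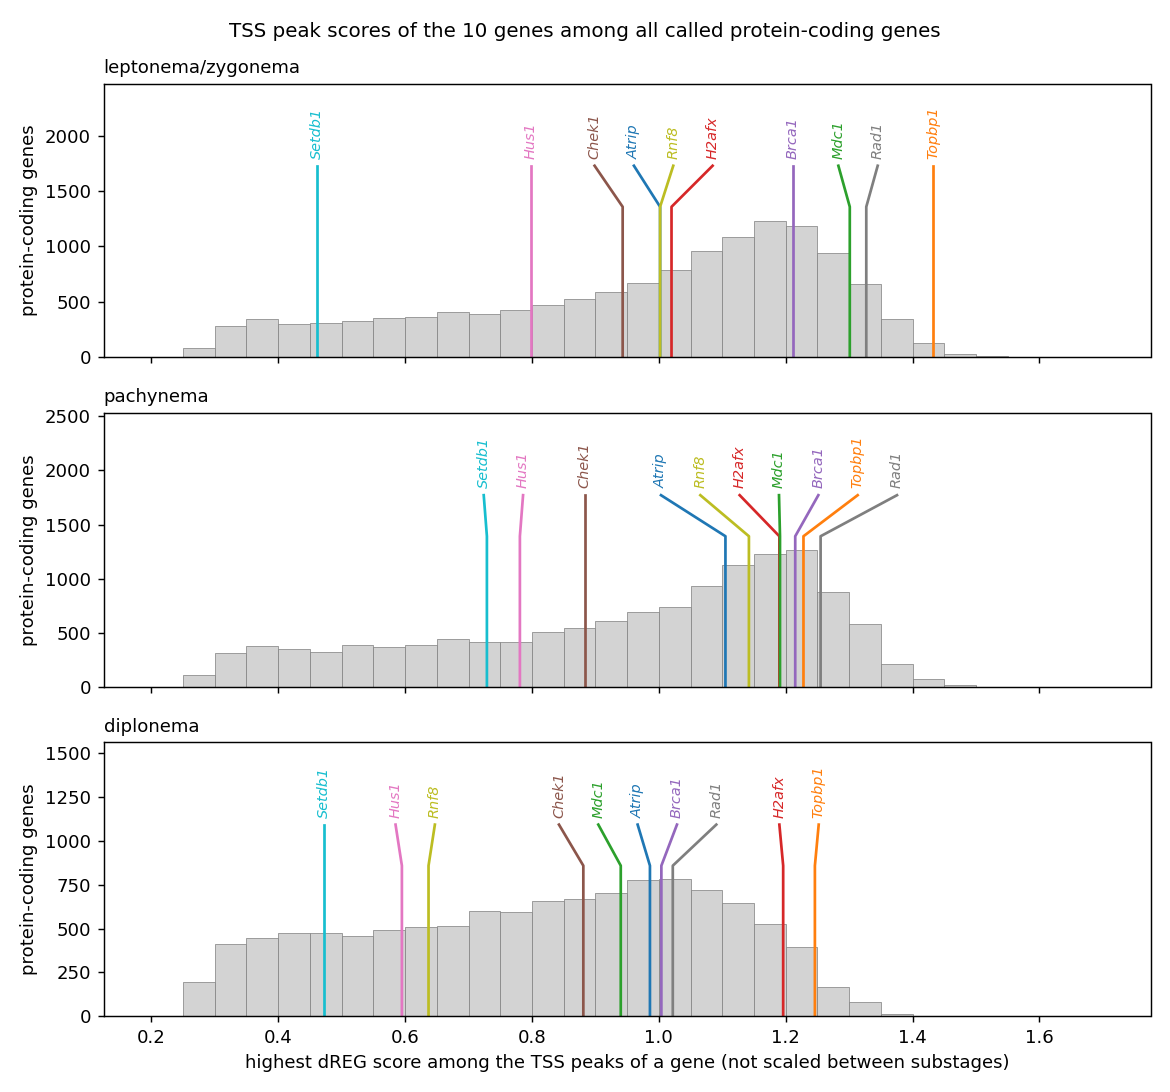
Histograms of the highest TSS peak score per called protein-coding gene (x axis, dREG score, with bars of 0.05; y axis, number of genes) in each substage, with colored lines at the scores of the 10 genes. Topbp1 lies in the right tail in leptonema/zygonema (1.43) and diplonema (1.25), and Setdb1 is the leftmost of the 10 in all 3 panels.

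A dREG peak has no strand, so a peak between neighboring start sites cannot be given to either gene. Of the 10 genes, 3 shared a TSS peak with a protein-coding gene on the opposite strand in every substage. These were Topbp1 with 1300017J02Rik (annotated starts 133 bp apart), Brca1 with Nbr1 (194 bp) and Rad1 with Brix1 (71 bp). Among all called protein-coding genes, the share that did so was 18.1% in leptonema/zygonema, 18.0% in pachynema, with 20.0% in diplonema. Rnf8 shared its start with the divergent non-coding RNA AC163629.1 on the opposite strand (20 bp) and with Gm28043, a protein-coding model on the same strand (86 bp). H2afx peaks also lay near Gm48853 (308 bp) and the miRNA gene Gm44335 (411 bp), both on the opposite strand. Setdb1 shared TSS peaks with Gm37500 on the opposite strand (annotated starts 1072 bp apart) in every substage, among them its highest peaks of leptonema/zygonema, 291 bp from a Gm37500 TSS, and diplonema, 561 bp from it. The scores of these shared peaks may hold initiation of either gene. Atrip, Mdc1, Chek1 and Hus1 shared no TSS peak with another annotated gene.

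Gene-body peaks, which overlap a gene but lie 1000 bp or more from its own TSSs, were few, and all scored under 0.5. They were found in 1, 3 and 1 of the 10 genes over the substages in order. Over all protein-coding genes the shares were 28.6%, 26.9% and 15.8%. Rnf8 had a peak in its 3′ UTR, from 29643731 to 29644120 in leptonema/zygonema (dREG score 0.480) and from 29643741 to 29644200 in pachynema (0.493). Setdb1 had 3 intronic peaks in pachynema (0.327 to 0.418) and 2 in diplonema (0.278 and 0.395), all under 1000 bp from a TSS of another gene. The remaining peak, in the 3′ UTR of H2afx in pachynema (0.419), lay 1087 bp from the TSS, just outside the limit. A diplonema peak of H2afx (0.476) at 997 bp was just inside it. No gene-body peak was called in Atrip, Topbp1, Mdc1, Brca1, Chek1, Hus1 or Rad1. Per 10 kb, the 10 genes had 0.0388, 0.194 and 0.0776 gene-body peaks, beside 0.163, 0.145 and 0.0666 over all protein-coding genes.

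Partner genes of the same pathways were drawn from 3 lists with 35 genes. In every substage the same 33 of the 35 were called, beside 49.5% of all protein-coding genes called in all 3 substages. The exceptions, Rad9a and Hus1b, which encode other subunits of the clamp family, had no TSS peak in any list, whereas Rad9b, a paralog of Rad9a, scored 1.24, 1.25 and 0.871. Atr itself scored 1.26, 1.31 and 1.23, with gene percentiles of 86.1, 95.0 and 96.7. From leptonema/zygonema to pachynema, 5 of 33 were higher by 10 points or more on the list scale and 1 was lower, beside 16.5% and 14.4% of all protein-coding genes, so the share of partners that were higher was near the background. With lists of equal size 13 were higher and 1 lower, beside 28.3% and 16.8%, and on the gene scale 12 were higher and 5 lower, beside 25.4% and 24.2%. On the list scale, the higher ones were Scml2 (25.5 points), Cbx1 (14.7 points), Rad50 (12.9 points), Trim28 (11.9 points) and Chek2 (10.5 points). SCML2 is a silencing factor of the male germ line, CBX1 a heterochromatin protein and RAD50 a subunit of the break sensor. TRIM28 is a corepressor that works with SETDB1, and CHEK2 a kinase downstream of ATM. The lower one was Trp53bp1 (-13.5 points), a chromatin reader at breaks. Scml2 is on the X chromosome, as is Brcc3, which differed by -3.07 points.

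From pachynema to diplonema, 12 of 33 partners were lower by 10 points or more and 0 were higher, beside the 40.4% and 4.55% of all protein-coding genes. These counts differed with lists of equal size, where 5 were lower and 6 higher, beside 21.4% and 24.3%. On the gene scale 12 were lower and 4 higher, beside 38.3% and 19.3%. Of the 11 called ATR and checkpoint partners, 6 were lower by 10 points or more on the list scale. The largest differences were in Rhno1 (-26.4 points) and Clspn (-21.2 points), with Rad9b, Timeless, Tipin and Rad17 between -15.6 and -10.2 points. With lists of equal size, Rhno1 (-15.0 points), Clspn (-13.0 points), Rad9b and Timeless were still lower by 10 points or more. RAD17 loads the clamp, RHNO1 binds it, claspin (Clspn) presents CHEK1 to ATR, and Timeless and Tipin encode a pair of fork protection proteins. Of the 14 ATM and break-site ubiquitin partners, 6 were lower by 10 points or more on the list scale. These were Uimc1 (-25.1 points), Ube2b (-24.3 points), Chek2 (-12.7 points), Abraxas1 (-12.5 points), Rnf168 (-10.7 points) and Mre11a (-10.3 points). With lists of equal size Chek2 alone of these was lower by as much (-11.4 points), while Abraxas1 was at 26.8 points and Ube2b at 5.60 points, against the direction above. On the gene scale Abraxas1 differed by -2.14 points and Ube2b by -9.05 points. RNF168 extends the ubiquitin marks begun by RNF8, UIMC1 reads such marks and ABRAXAS1 links it to BRCA1, and MRE11A is a nuclease of the break sensor. Of the 8 silencing and axis partners, 0 were lower by 10 points or more on any of the 3 scales. With lists of equal size 4 were higher by 10 points or more, and 4 were on the gene scale. The median gene percentile of the silencing and axis list was 64.5, 60.1 and 86.9 over the substages, whereas that of the ATR and checkpoint list was 70.0, 83.3 and 60.0. That of the ATM and break-site list was 64.5, 80.2 and 65.0. Whether the lists differ from each other could not be tested with 1 pooled value per gene and substage.

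**Figure D4:**
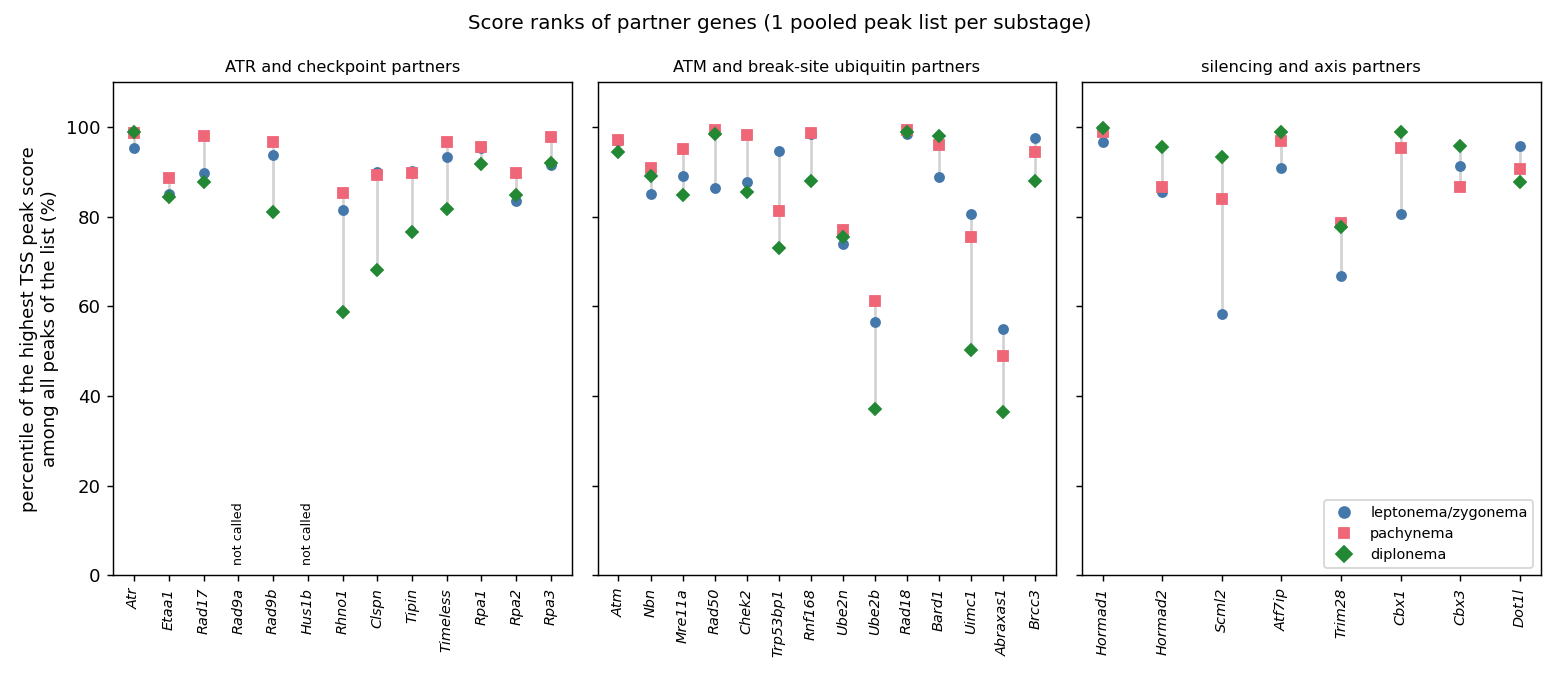
List percentile of the highest TSS peak score (y axis) for each partner gene (x axis) in leptonema/zygonema (circles), pachynema (squares) and diplonema (diamonds), with a gray line over the range. Diamonds lie lowest for many ATR and ATM partners such as Rhno1, Clspn and Uimc1, and highest for Scml2 and Hormad2, and Rad9a and Hus1b were not called.

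Marker genes were used to check the substage labels. All 5 pachytene markers were called in every list, and all 5 had a higher list percentile in pachynema than in leptonema/zygonema. On the gene scale this held for Piwil1, Pgk2 and Mybl1 but not for Hspa2 and Ccna1. On the list scale Hspa2 and Ccna1 were each 0.72 points higher, beside a median of 1.06 points over the protein-coding genes. In diplonema 4 of the 5 ranked higher than in pachynema on both scales. The list percentile of Piwil1 was 68.1, 89.5 and 99.4 over the substages, that of Pgk2, a testis-specific glycolytic enzyme, 91.2, 97.3 and 99.8, that of Hspa2 88.9, 89.6 and 92.9 and that of Ccna1 93.4, 94.1 and 97.7. The exception was Mybl1, at 87.6, 91.9 and 70.0. The 5 early prophase markers were all called in leptonema/zygonema and pachynema, and Stra8 was not called in diplonema. The list percentile of Dmc1, the meiotic recombinase, was 86.3, 68.2 and 46.8 and that of Spo11 86.5, 85.9 and 81.1, whereas that of Sycp3 was 81.9, 94.3 and 98.9. The early prophase markers thus did not move together. Of 5 spermatogonial markers, Gfra1 was at 0 peaks throughout, and Sohlh1 was not called in diplonema. Kit scored 1.04, 1.00 and 0.343 and Dmrt1 1.07, 1.06 and 0.332. Zbtb16 scored 0.845, 0.857 and 0.685, and its gene percentile of 30.5, 33.7 and 33.8 was not lower in diplonema. The 4 called in leptonema/zygonema had a summed score of 3.87 and the 4 in pachynema 3.44, with Dmrt1 highest in both. The 3 in diplonema had a summed score of 1.36, with Zbtb16 highest. The median gene percentile of those called was 42.5, 40.3 and 4.93. Of 6 spermatid markers, 5 were called in every substage, with Tnp2 at 0 peaks, summed scores of 4.97, 4.62 and 4.64, and Spaca1 or Acrv1 as the highest. Prm1 and Prm2 had the same score in every list (0.676, 0.561 and 0.747), and the sums hold it for each of them. Since scores were not scaled between lists, ranks were compared as well. The median gene percentile of the spermatid markers was 42.1, 42.4 and 66.7 and their median list percentile 79.2, 80.5 and 87.7, both highest in diplonema. These medians also hold the common value of Prm1 and Prm2 for each of them. The diplonema medians were the values of Acrv1, whose gene percentile was lower there than in pachynema (93.1). Those of Prm1, Prm2, Tnp1 and Spaca1 were higher there. Sertoli cell markers were called for 2, 3 and 3 of 5 genes, with summed scores of 1.06, 1.71 and 1.51, Clu or Sox9 highest, and Amhr2 and Rhox5 at 0 peaks. Leydig cell markers were at 0 peaks except Cyp11a1 in pachynema (0.414). The part of spermatogonial, spermatid or somatic cells in the ranks of the 10 genes was not tested.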

How the data were processed

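leChRO-seq libraries (4 per substage) were made and processed by the authors, who removed duplicates and adapters (PRINSEQ lite, cutadapt), mapped reads with BWA to mm10, merged the libraries of a substage and ran dREG with default settings. The dREG score and the p-value of each peak are the authors' deposited values. The score is not scaled between lists. All p-values were under 0.05, and 24.1% to 29.4% of the peaks of a list had a p-value of exactly 0, including peaks scoring under 0.5, so scores were ranked and p-values served only in 1 alternative. The lists give no read counts. Background shares on the gene scale, with lists of equal size and for overlapping peaks (at least 1 bp) were added after the values of the 10 genes were known.

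Peaks were matched to GENCODE M21 TSSs by edge distance (under 1000 bp), and the highest score per gene was ranked within its list. The 10 genes, the partner and marker lists, the 10 motifs and the alternatives were chosen with earlier results of these data known. All 10 genes were named, as were partners not called in a substage or with a difference of at least 10 percentile points between neighboring substages, and genes sharing a TSS peak with one of the 10. Other partners and the markers named were picked after their values were seen. The symbol Fam175a was read as Abraxas1 through RefSeq synonyms. A planned count of SQ and TQ pairs in the proteins was not made. Alternatives varied the TSS rule and set, the peak filter, the list size, what was ranked, the gene-body rule and the motif window. The matching and ranking steps were tested on simulated data. Tables were handled with pandas 2.3.3 and numpy 2.4.6 in Python 3.11.15, and sequences were read with pysam 0.24.0 and samtools 1.23.1.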

Additional observations from a re-analysis of the deposited data

How the results depend on the processing

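No paired analysis was possible because the libraries of a substage were merged before peaks were called, and for the same reason no library could be left out. All 10 genes stayed called under every TSS rule and with a p-value of at most 0.01, and Setdb1 alone was lost, in leptonema/zygonema and diplonema with a score of at least 0.5 and in leptonema/zygonema with lists of equal size. The median percentiles of the 10 genes were 77.2, 89.5 and 83.8 over the substages when ranked among proximal peaks, 45.6, 71.1 and 65.7 among protein-coding genes, and 63.4, 64.0 and 66.9 with summed scores. From leptonema/zygonema to pachynema, 1 gene was lower by 10 points under each of the 5 other TSS rules, 2 when ranked among protein-coding genes and 3 with summed scores, and Rnf8 was at -10.4 points under each of those TSS rules (and at -7.01 points into diplonema). From pachynema to diplonema, 2 genes were higher and 1 lower with lists of equal size, beside 24.3% and 21.4% of the protein-coding genes. When ranked among protein-coding genes 3 were higher, beside 19.3%, and with summed scores also 3. With a score of at least 0.5, 5 were lower. Background shares were not made for summed scores or for the score limit. In that step Hus1 was at 11.9 points with lists of equal size, and Setdb1 was at 3.74 points there and at 6.98 points with summed scores. Summed scores also turned the sign of smaller differences, with Mdc1 at 2.59 and 15.5 points over the successive steps, Brca1 at -4.09 and 15.7 points, Hus1 at -12.8 points into pachynema and Chek1 at -18.2 points into diplonema. Chosen after seeing the data, the same alternatives were run for the partner genes. Into pachynema, 13 partners were higher with lists of equal size (3 ATR and checkpoint, 6 ATM and break-site) and 12 on the gene scale (3 and 5), where 5 were lower (3 ATM and break-site, 2 silencing and axis). Into diplonema, 6 were higher with lists of equal size (2 ATM and break-site, 4 silencing and axis) and 4 on the gene scale, all silencing and axis, while 5 were lower with lists of equal size (1 ATM and break-site). Gene-body peaks were left in 0 genes with a score of at least 0.5 in every substage, in 0 with lists of equal size in leptonema/zygonema and pachynema, and, without peaks near another TSS, in 1 in pachynema and 0 in diplonema. In windows from 500 bases before to 100 bases after the TSS, the RFX core stood in 4 promoters (18.6% of the background), the TATA box in 2 (16.5%) and the E box in 2 (15.5%), and within 150 bases of the peak center the RFX core stood in 4 (11.6%). Other TSS rules drop the internal Rnf8 peak, wider windows hold more bases, and for the other differences the cause was not tested. The other 114 summary values stayed within the limits set for a change. They were not all equal, since 4 ATR and checkpoint partners were lower into diplonema with lists of equal size in place of 6.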
